A study of Mus musculus with 8 samples.

Results

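The p53 response was followed through 8 genes in mouse bone marrow B-cell progenitors: Trp53, which encodes p53, its inhibitors Mdm2 and Mdm4, and its target genes Cdkn1a, Ccng1, Trp53inp1, Phlda3 and Sesn2. The genes were a named list, matched by symbol to the Entrez Gene identifiers of the count table, and all 8 were found among its 27179 identifiers. RNA of 4 sorted populations was sequenced, in 2 libraries for each population. From Erg fl/fl mice there were pre–proB, proB and preB cells. In these mice both Erg alleles carry loxP sites and remain intact. The fourth population was sorted by the pre–proB gate from mice of the genotype Rag1Cre T/+;Erg Δ/Δ, where Cre under control of the lymphoid gene Rag1 deletes Erg from the common lymphoid progenitor stage onwards, and is called Erg-deficient below. Since no control mouse had Rag1Cre, the presence of Cre and the loss of Erg cannot be told apart. The study used young adult mice. The gates took B220+ cells without IgM, IgD, NK1.1 or CD11c, and divided them into pre–proB (CD43+ CD24-), proB (CD43+ CD24+) and preB (CD43- CD24+) cells. The populations were sorted from a pair of mice of each genotype, so libraries of different Erg fl/fl stages may share a mouse. Which library came from which mouse is not stated, the fits treat all libraries as independent, and the p-values measure the spread between these libraries only.

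p53 is a transcription factor that is held at a low protein level by Mdm2, a ubiquitin ligase that is itself a p53 target, and whose activity is further restrained by the Mdm2 relative Mdm4. After DNA breaks, the kinases Atm, Atr, Chek1 and Chek2 phosphorylate p53 and Mdm2, p53 accumulates, and genes that stop the cell cycle, alter metabolism or start cell death are transcribed. Developing B cells make such breaks themselves: Rag1 and Rag2 cut the heavy chain locus at the proB stage and the light chain loci at the preB stage, and large cycling cells divide between the rounds of cutting. Since p53 is controlled mainly at the protein level, RNA of Trp53 does not measure its activity.

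A p53 response element is built of a pair of 10-base decamers that each have a CNNG core. RefSeq start-site windows (GRCm38.p6, 250 bases before to 50 after each start) were available for 7 of the 8 genes, in 9 windows, and not for Trp53inp1. Both strands were searched for the decamer consensus without mismatch, and for 2 adjoining decamers (20 bases, no spacer, at most 1 mismatch, both cores intact), so that a full site can also hold a decamer match. The 20-base site occurred in 18 of 32851 windows of all genes (0.0548%). Among the member windows it was found in that of the upstream Cdkn1a start, chr17:29090729-29090978 on the plus strand, at positions -51 to -32 counted from the start. The 250 bases before that start are shown because they hold this site, which is in capitals and has 1 mismatch. They also hold a separate decamer without mismatch, at positions -73 to -64, which is left in lower case. The other Cdkn1a start lies 2790 bases downstream and its window held neither element.
Cdkn1a: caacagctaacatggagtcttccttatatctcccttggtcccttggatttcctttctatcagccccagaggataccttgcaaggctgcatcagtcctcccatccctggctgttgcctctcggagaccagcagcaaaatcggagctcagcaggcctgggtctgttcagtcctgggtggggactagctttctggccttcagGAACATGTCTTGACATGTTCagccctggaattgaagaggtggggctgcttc

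The single decamer was far more frequent, with 2745 of all windows (8.36%), and occurred in 4 of the 9 member windows, those of Cdkn1a, Mdm2, Ccng1 and Trp53. For the last 3 the decamer (capitals) is shown with its neighbouring bases, on the strand of the gene, at chr10:117710915-117710964 (minus strand), chr11:40755442-40755491 (minus strand) and chr11:69580264-69580313 (plus strand). A match is a description of the letters and not evidence of binding, and response elements outside these windows, such as those within introns, were not searched.
Mdm2: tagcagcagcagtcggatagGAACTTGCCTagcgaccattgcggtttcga
Ccng1: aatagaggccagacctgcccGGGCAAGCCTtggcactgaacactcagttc
Trp53: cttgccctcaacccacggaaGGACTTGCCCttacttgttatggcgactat

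Library totals lay between 15565381 and 18457632 counts, and replicates differed by more than sampling noise in every group (chi-square per degree of freedom between 3.82 and 8.29). Levels are given as CPM, the counts scaled to a common library size by TMM, or as FPKM, CPM per kilobase of exon, for comparisons between genes. Erg, the deleted gene, had 2.50 and 2.58 CPM in the Erg-deficient libraries, compared with 69.1 and 25.3 CPM in their controls. The proB and preB libraries carried the B lineage genes of their labels, with 8 markers summing to between 4298 and 6143 CPM. The pre–proB libraries of both genotypes also held RNA of plasmacytoid dendritic-like genes, with 6 such markers summing to between 8915 and 10659 CPM, against between 409 and 761 CPM in proB and preB cells. The 2 Erg fl/fl pre–proB libraries were unequal in B lineage RNA, the same markers summing to 1476 CPM in replicate 1 and 762 CPM in replicate 2. This inequality applies to every comparison with Erg fl/fl pre–proB cells, and its part in them was not tested. Where leaving out a library changed the call of a member, that library is named.

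Along the 3 Erg fl/fl stages the 8 genes moved in different directions rather than as a block. Cdkn1a RNA was highest in proB cells, Trp53inp1, Mdm2 and Mdm4 RNA in preB cells, and Sesn2, Ccng1 and Phlda3 RNA in pre–proB cells. All 8 passed the filter on low counts in both fits. Between pre–proB and proB cells, 6 of the 8 were called by edgeR's quasi-likelihood test at an adjusted p below 0.05, 3 higher and 3 lower in proB, where 73.0% of the 13650 genes tested were called, 36.2% higher and 36.8% lower. Between proB and preB cells 6 of 8 were called, 4 higher and 2 lower in preB, beside 58.9% of all genes, 29.0% higher and 29.9% lower. From pre–proB to preB cells all 8 were called, 5 higher and 3 lower, beside 70.7% of all genes, 36.5% higher and 34.1% lower. With that many genes called along the stages, being called is not particular to these genes, and the direction and size of each change are what the data describe. In bulk RNA, a different share of cells that express a gene and a different amount of RNA per cell cannot be told apart. Between the genotypes none of the 8 was called, against 1.16% of 13005 genes, 0.215% higher and 0.946% lower in Erg-deficient cells.

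**Figure D1:**
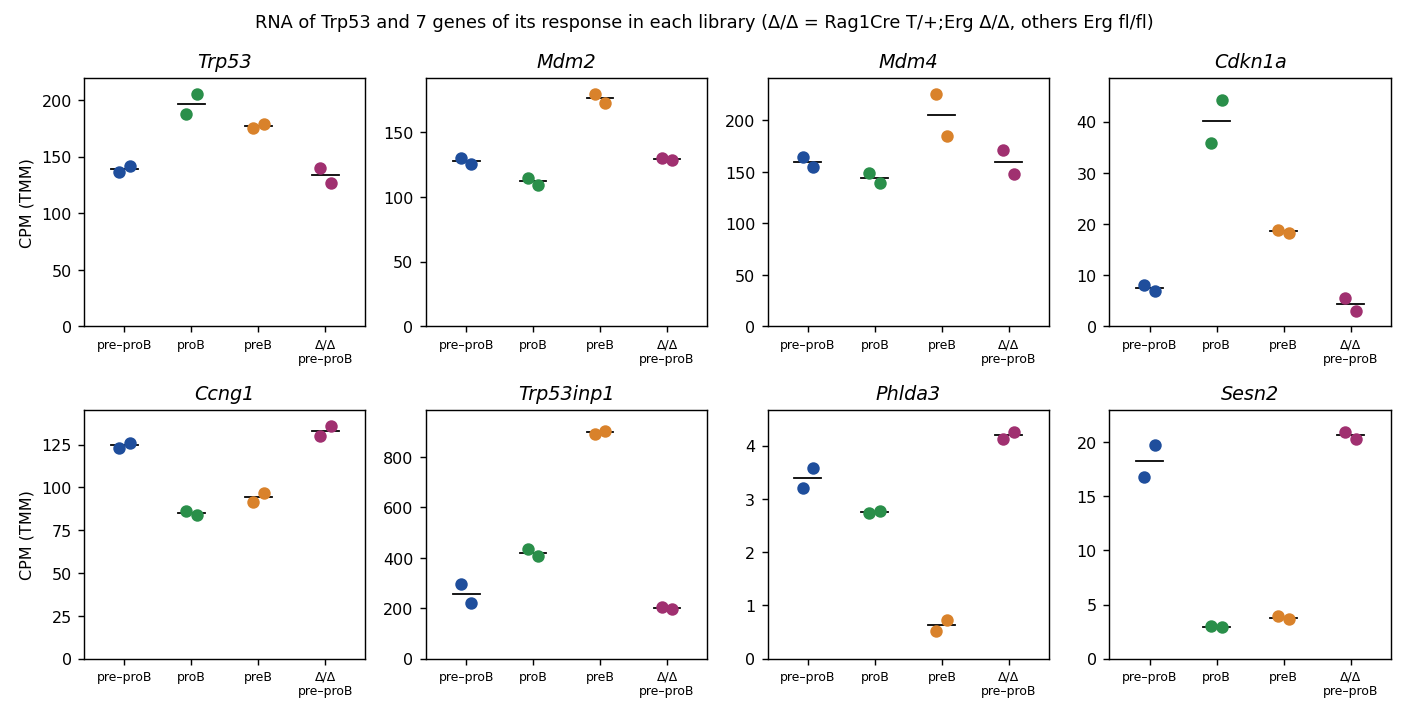
CPM of each of the 8 genes in the 8 libraries (Δ/Δ stands for Erg-deficient), with a panel per gene, points for libraries and a line for the mean of a group. Cdkn1a is highest in proB cells (35.8 and 44.2 CPM), Trp53inp1 in preB cells (889.7 and 904 CPM), and Sesn2 in the pre–proB cells of either genotype (between 16.8 and 21.0 CPM).

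Per length, Trp53 had the most RNA of the 8 genes in pre–proB cells of Erg fl/fl mice, at 74.5 ± 2.06 FPKM (SD, n = 2), followed by Trp53inp1 at 47.7 ± 9.68 FPKM (SD, n = 2). Mdm2 and Ccng1 came next, at 40.6 and 35.5 FPKM. Mdm4 lay at 14.7 FPKM, and Sesn2, Cdkn1a and Phlda3 at between 2.37 and 5.26 FPKM. In preB cells the order differed, with Trp53inp1 first at 166 ± 1.90 FPKM (SD, n = 2) and Phlda3 last at 0.437 ± 0.103 FPKM (SD, n = 2). The ratio of the highest to the lowest group mean was 9.17 for Cdkn1a, 6.95 for Sesn2, 6.68 for Phlda3 and 4.48 for Trp53inp1, while it stayed between 1.42 and 1.57 for Trp53, Mdm2, Mdm4 and Ccng1. Thus the transcription factor, its inhibitors and Ccng1 varied little across groups, and the other targets varied more.

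**Figure D2:**
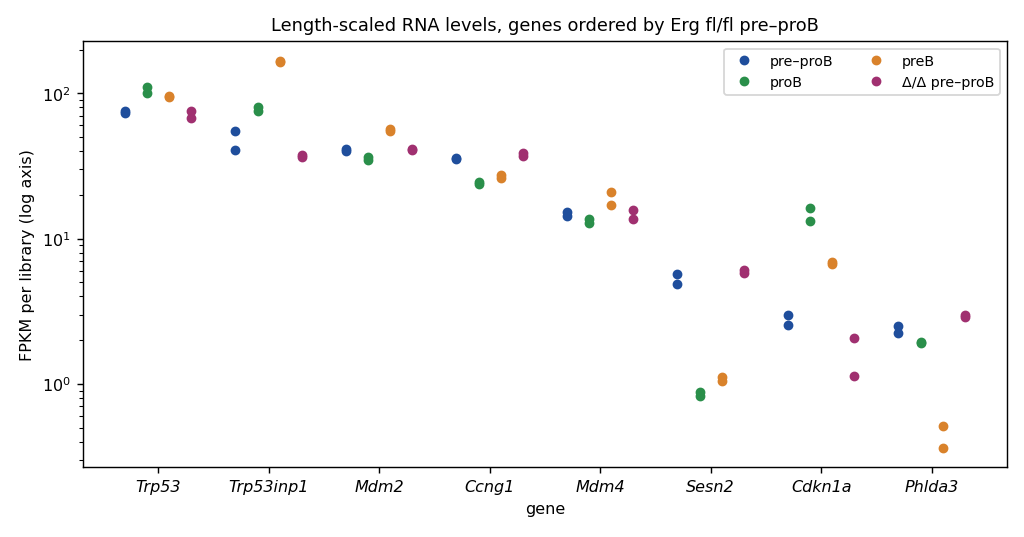
FPKM per library on a log axis for the 8 genes, ordered by their level in Erg fl/fl pre–proB cells and coloured by group (Δ/Δ stands for Erg-deficient). Trp53, Mdm2, Ccng1 and Mdm4 keep narrow ranges, whereas Sesn2, Cdkn1a and Phlda3 spread over several fold.

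Trp53 (Entrez Gene 22059, chr11:69580348-69591873) encodes p53 itself. In pre–proB cells it was counted at 136 and 142 CPM, compared with 188 and 205 CPM at the proB stage and 175 and 179 CPM at the preB stage. Erg-deficient cells had 139.9 and 127 CPM. The proB and preB libraries were above all pre–proB libraries, and the pre–proB libraries of the 2 genotypes overlapped. The level was 1.45-fold higher in proB than in pre–proB cells (log2 fold change 0.53, standard error 0.0677, adjusted p = 0.000113). From proB to preB the difference of -0.14 on the log2 scale (95% interval -0.30 to 0.01) had an adjusted p of 0.0950 and was called in 4 of 16 alternative settings. The order of the levels was therefore proB, preB and then pre–proB, with the upper pair not separated. Trp53 and Wrap53 start close together on opposite strands, and Wrap53 rose by 0.50 on the log2 scale in the same comparison (adjusted p = 0.000443). The sources used here do not give the use of strand, so reads of a transcript that runs into the neighbouring gene cannot be told apart.

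Mdm2 (Entrez Gene 17246, chr10:117688875-117710758), the ligase that marks p53 for degradation, had 130.1 and 125 CPM at the pre–proB stage, 114 and 109 CPM at the proB stage and 179 and 173 CPM at the preB stage. The preB libraries were the highest and the proB libraries the lowest, without overlap. The rise from proB to preB was 1.58-fold (log2 fold change 0.66, standard error 0.0579, adjusted p = 3.5e-05) and held in all 16 alternatives. The small decrease from pre–proB to proB (log2 fold change -0.16, adjusted p = 0.0388) lost its call in 7 of 16 alternatives, which include those without pre–proB replicate 1, without either proB library and without preB replicate 2, with adjusted p between 0.0133 and 0.158. Mdm4 (Entrez Gene 17248, chr1:132986105-133030587), which binds p53 without marking it, had 165 and 154 CPM in pre–proB libraries, 149 and 139.6 CPM in proB libraries and 226 and 185 CPM in preB libraries. Its preB libraries were again above all others, and those of pre–proB and proB lay close to each other. Mdm4 rose 1.43-fold from proB to preB (log2 fold change 0.51, standard error 0.0929, adjusted p = 0.00166), while proB and pre–proB cells differed by -0.11 (95% interval -0.32 to 0.10, adjusted p = 0.314).

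The FPKM ratio of Mdm4 to Mdm2 in the libraries was 0.366 and 0.357 (pre–proB), 0.377 and 0.370 (proB), 0.365 and 0.310 (preB), and 0.383 and 0.333 (Erg-deficient pre–proB). The proB ratios were the highest of the Erg fl/fl stages and lay within the range of the Erg-deficient cells, and the group means stayed between 0.337 and 0.373 while the levels of both genes changed. The ratios are given as a description and were not tested. An exact two-sided permutation test of 2 libraries against 2 has 0.33 as its smallest p.

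Cdkn1a (Entrez Gene 12575, chr17:29090979-29100722) encodes p21, an inhibitor of cyclin-dependent kinases that halts the cell cycle. From 8.15 and 6.93 CPM in pre–proB libraries it went to 35.8 and 44.2 CPM in proB libraries and to 18.8 and 18.3 CPM in preB libraries, based on between 114 and 859 counts per library. The 3 stages did not overlap. Cdkn1a was 5.44-fold higher in proB than in pre–proB cells (log2 fold change 2.44, standard error 0.137, adjusted p = 6.53e-07), and 10.7% of all genes tested had a larger change in either direction. From proB to preB it fell by 1.10 on the log2 scale (standard error 0.123, adjusted p = 0.000117). Both calls held under all 16 alternatives. Proliferation genes were called in both comparisons: all 12 listed ones were higher in proB than in pre–proB cells (median log2 fold change 2.16), all 12 were lower in preB than in proB cells (median -0.61), and their part in the Cdkn1a values was not tested.

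Ccng1 (Entrez Gene 12450, chr11:40748552-40755309) encodes cyclin G1, a p53-induced protein that recruits a phosphatase to Mdm2. Its pre–proB values of 123 and 126 CPM compare with 86.2 and 83.6 CPM for proB and 91.6 and 96.9 CPM for preB. The pre–proB libraries were above all others, in contrast to Cdkn1a. Ccng1 fell by 0.52 on the log2 scale from pre–proB to proB (standard error 0.0588, adjusted p = 5.31e-05). A difference of 0.16 between preB and proB cells (adjusted p = 0.0460) was called in 6 of 16 alternatives only, with adjusted p between 0.0347 and 0.310, and not without pre–proB replicate 1 or 2, proB replicate 1 or 2, or preB replicate 2.

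Trp53inp1 (Entrez Gene 60599, chr4:11156441-11174379) encodes a stress-induced protein that takes part in cell death and autophagy. Libraries of the pre–proB stage had 295 and 221 CPM, those of the proB stage 433 and 408 CPM and those of the preB stage 889.7 and 904 CPM. It was higher at each stage than at the one before, with no overlap. The step to proB was 1.67-fold (log2 fold change 0.74, standard error 0.120, adjusted p = 0.000509) and the step to preB was 2.15-fold (log2 fold change 1.10, standard error 0.119, adjusted p = 0.000102). Over both steps it was 3.58-fold higher, the largest rise of the 8 genes between pre–proB and preB cells. Its pre–proB replicate 1, the library with more B lineage RNA, had the higher value of that pair, and without replicate 1 or 2 the step to proB was 0.91 or 0.52, called in each case.

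Phlda3 (Entrez Gene 27280, chr1:135766085-135769134), a membrane-binding repressor of Akt signalling, was the least abundant member in preB cells. Its level was 3.21 and 3.59 CPM at the pre–proB stage, 2.73 and 2.78 CPM at the proB stage and, from 9 and 13 counts, 0.523 and 0.732 CPM at the preB stage. The preB libraries were far below the other 4. The level was 4.32-fold lower in preB than in proB cells (log2 fold change -2.11, standard error 0.287, adjusted p = 0.000349), and 5.33% of all genes tested had a larger change. Pre–proB and proB cells differed by -0.27 (95% interval -0.80 to 0.26, adjusted p = 0.319), a difference that 50 to 59 counts per library could not resolve.

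Sesn2 (Entrez Gene 230784, chr4:132492804-132510456) encodes sestrin 2, a leucine-binding protein that restrains the growth kinase complex mTORC1. It had 16.8 and 19.8 CPM in the pre–proB libraries, against 3.06 and 2.88 CPM for proB and 3.89 and 3.66 CPM for preB. The pre–proB libraries stood above all others, and those of proB and preB lay near each other. Sesn2 was 6.01-fold lower in proB than in pre–proB cells (log2 fold change -2.59, standard error 0.160, adjusted p = 1.2e-06), and 9.85% of all genes had a larger change. The preB and proB levels differed by 0.35 (95% interval -0.05 to 0.76, adjusted p = 0.117), which was not called in any of 16 alternatives. Between preB and pre–proB cells the log2 fold changes ran from -2.38 for Phlda3 and -2.23 for Sesn2 through -0.36 for Ccng1, 0.39 for Trp53, 0.40 for Mdm4, 0.50 for Mdm2 and 1.34 for Cdkn1a to 1.84 for Trp53inp1, and each was called in every alternative.

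**Figure D3:**
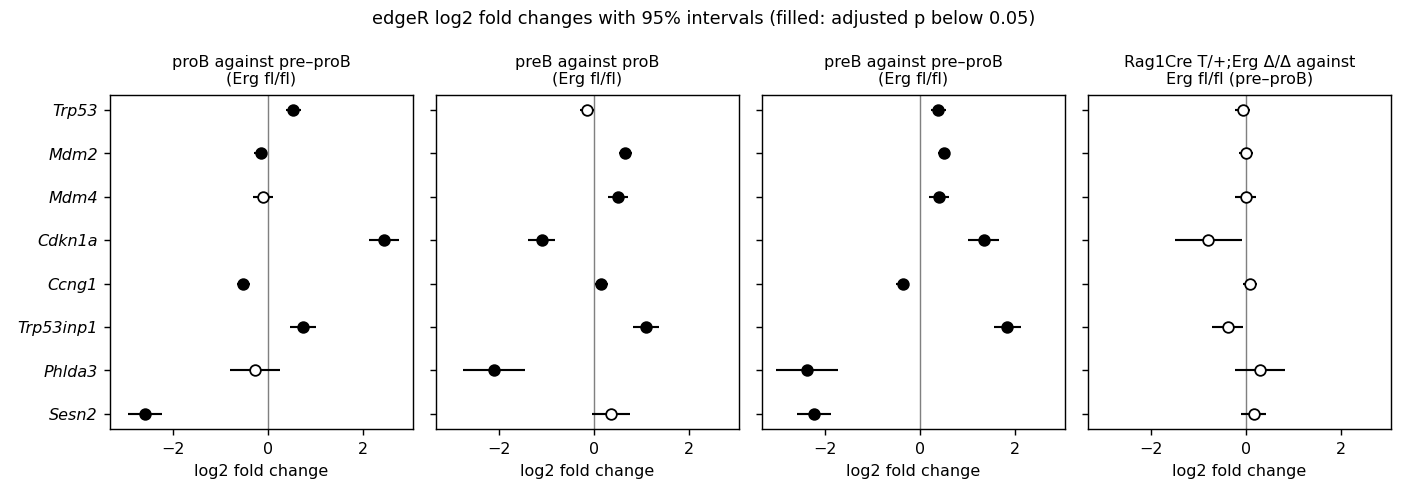
Log2 fold changes of the 8 genes (x axis) with 95% intervals in 4 comparisons, filled where the adjusted p was below 0.05. Sesn2 (-2.59) and Cdkn1a (2.44) mark the ends for proB against pre–proB cells, and no point of the genotype comparison is filled.

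Markers of other cell types moved with the comparisons to pre–proB cells. From pre–proB to proB, 6 of 6 plasmacytoid dendritic-like markers were lower in proB cells, with a median log2 fold change of -5.35. Likewise 6 of 6 NK-like markers were lower (summed level 200.5 and 203 CPM against 9.72 and 13.3), and 5 of 6 T-like markers were lower and 1 was higher (639 and 801 CPM against 82.5 and 91.7). In preB cells these sums were 634 and 761 CPM, 6.68 and 5.18 CPM, and 29.7 and 35.6 CPM, and none of these markers was at 0 counts in any library. In Erg fl/fl pre–proB cells most of the T-like sum was Cd4 and Cd8a (means of 544 and 117 CPM). Lck followed at 42.4 CPM, and Cd3d, Cd3e and Cd3g lay at 5.66, 5.72 and 5.21 CPM. Most of the NK-like sum was Klrd1 (174 CPM), with the other NK-like markers between 2.52 (Ncr1) and 9.44 CPM (Klrb1c). Of 8 B lineage markers, 8 were higher in proB cells, and of 8 myeloid-like markers 5 were higher and 2 lower, with sums of 208 and 162 CPM (pre–proB), 181 and 451 CPM (proB) and 65.7 and 35.6 CPM (preB). Of 6 plasma cell-like markers 2 were higher and 2 lower in proB cells, and their sums were 474 and 445 CPM (pre–proB), 330 and 433 CPM (proB) and 69.6 and 58.3 CPM (preB). All 4 erythroid-like markers tested were higher in proB cells, at sums of 1.73 and 2.19 CPM (pre–proB), 15.4 and 17.7 CPM (proB) and 26.1 and 21.2 CPM (preB). The part of these lists in the values of the 8 genes was not tested. For the step from proB to preB cells, 5 of 6 plasmacytoid dendritic-like, 3 of 6 NK-like, 4 of 6 T-like and 7 of 8 myeloid-like markers were called, all lower but Ly6d. Likewise 6 of 6 plasma cell-like markers were called, 4 lower (Jchain, Ighg1, Ighg2c and Ighg3) and 2 higher (Sdc1 and Prdm1), with a median of -4.94, and 1 of 4 erythroid-like markers was higher. The part of these lists in the fall of Phlda3 was not tested either.

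**Figure D4:**
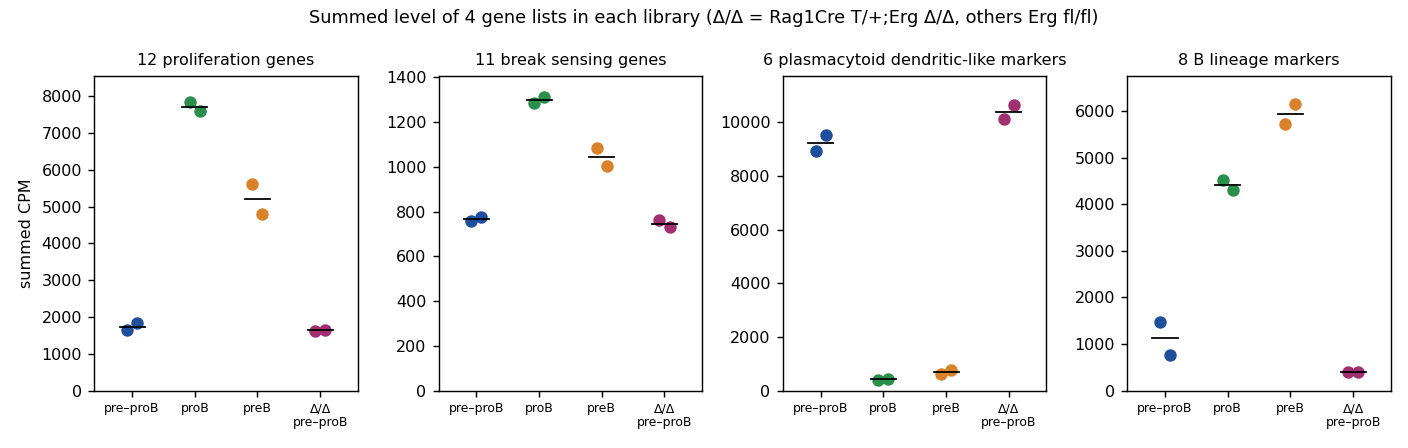
Summed CPM of 4 gene lists in each library, with a line at the mean of each group. The sums of proliferation and of break sensing genes are highest in proB cells. H2ax is a large part of the break sensing sum (means of 134, 499 and 388 CPM along the stages). Atm and Prkdc of that list are lower in proB than in pre–proB cells. Plasmacytoid dendritic-like markers are high in the pre–proB libraries of both genotypes, and B lineage markers are lowest in Erg-deficient cells (Δ/Δ).

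Among 32 further p53 target genes, 29 were tested along the stages, and these diverged too. In proB against pre–proB cells 25 were called (86.2%, beside 73.0% of all genes), 13 higher and 12 lower, with a median log2 fold change over the 29 of 0.12 beside 0.0040 for all genes. The called genes with the lowest p were Gtse1 (2.51), a microtubule-bound protein that restrains p53 in the G2 phase, Ckap2 (2.15), a spindle protein, Zmat3 (-2.72), an RNA-binding protein, Ercc5 (-1.37), a nuclease of excision repair, Plk2 (3.56), a polo-like kinase, and Pidd1 (1.50), a death domain scaffold. In preB against proB cells 20 of 29 were called (69.0%, beside 58.9%), 13 higher and 7 lower, with a median of 0.23 beside -0.00045 for all genes. Here Btg2 (1.72), an antiproliferative gene, Rrm2b (1.51), the p53-induced subunit of ribonucleotide reductase, Gadd45a (1.15), a stress gene, Ercc5 (0.75), Plk2 (1.27) and Ckap2 (-0.72) led by p. In preB against pre–proB cells 20 of 29 were called (69.0%, beside 70.7%), 13 higher and 7 lower, led by Rrm2b (2.21), Plk2 (4.84), Gtse1 (1.99), Ppm1d (1.13), Zmat3 (-2.20) and Gadd45a (1.68). The changes of Plk2 start from a low pre–proB mean of 0.946 CPM (30 counts over 2 libraries), against 10.9 CPM in proB and 26.2 CPM in preB cells. The list thus held genes that were higher in proB cells beside others that were lower, as did the 8 genes.

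The 20-base p53 site was also present, with 1 mismatch each, in the windows of Gtse1 and Rps27l, 2 of 35 windows (5.71%) of the further targets. Set beside Cdkn1a (2.44 in proB against pre–proB and -1.10 in preB against proB cells), Gtse1 had 2.51 and -0.52 and Rps27l had 0.82 and -0.80. These 3 genes were picked by their sequence, the 2 comparisons share the proB libraries, and no test was made of the likeness. The course was not particular to them. All 12 listed proliferation genes were also higher in proB than in pre–proB cells and lower in preB than in proB cells (medians 2.16 and -0.61). Ckap2, a further target not among the genes with the site, had means of 25.3, 109 and 66.2 CPM along the stages. Other targets without it, such as Zmat3 (21.1, 3.12 and 4.47 CPM), took another course.

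**Figure D5:**
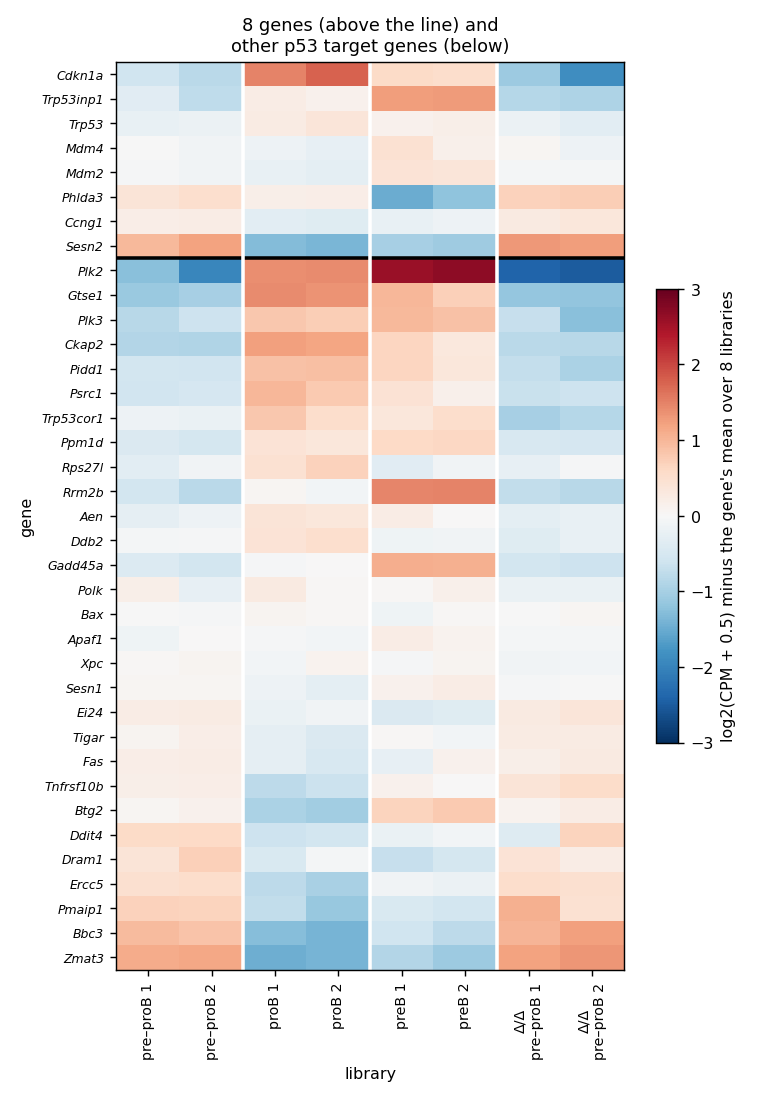
Level of the 8 genes (above the line) and of 29 further p53 targets (below), as log2(CPM + 0.5) minus the mean of the gene over the 8 libraries, with colours limited at 3. Rows are ordered within each block by the log2 fold change of proB against pre–proB, so that genes high in proB cells such as Plk2 and Gtse1 stand at the top and genes high in pre–proB cells such as Zmat3 at the bottom.

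Of 11 genes that sense breaks and relay them to p53, 10 were called in proB against pre–proB cells (90.9%, beside 73.0% of all genes). Of these 8 were higher and 2 lower, with a median log2 fold change over the 11 of 0.76 beside 0.0040 for all genes. In preB against proB cells 8 were called (72.7%, beside 58.9%), all lower, with a median of -0.36 beside -0.00045. The 12 listed proliferation genes moved in the same directions (medians 2.16 and -0.61), and their part in these values was not tested. Chek1, the kinase of stalled replication forks, rose by 2.50 (standard error 0.0889, adjusted p = 4.79e-08) and then fell by 0.88. H2ax, the histone phosphorylated around breaks, rose by 1.93, and the nuclease complex genes Mre11a, Rad50 and Nbn by 1.13, 0.76 and 0.80. Chek2, a kinase that acts on p53, rose by 1.32. Lower in proB cells were Atm, the kinase activated by double-strand breaks (-0.38, adjusted p = 0.00123), and Prkdc, the kinase of end joining (-0.30, adjusted p = 0.00411). In preB against pre–proB cells 9 of 11 were called (81.8%, beside 70.7%), 6 higher and 3 lower.

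Of 13 other regulators of p53, 10 were tested. In proB against pre–proB cells 7 were called, 3 higher and 4 lower (70.0%, beside 73.0% of all genes). In preB against proB cells 5 were called, all higher (50.0%, beside 58.9%), so the number of calls was below the share of all genes in both. Cop1, a ligase for p53, fell by 0.77 and then rose by 0.82. Rchy1, a further ligase, was higher in preB than in proB cells by 0.61, and so were the acetyltransferase genes Crebbp (0.60), Ep300 (0.48) and Kat5 (0.22). In preB against pre–proB cells 4 were higher and 1 was lower (50.0%, beside 70.7%). Cdkn2a, whose Arf product blocks Mdm2, did not pass the filter and was at most 0.67 CPM in any library, and neither did the p53 relatives Trp63 and Trp73.

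The other inhibitors of cyclin-dependent kinases took courses of their own. Cdkn1b, encoding p27, had 122 and 107 CPM for pre–proB, 125 and 116 CPM for proB and 234 and 243 CPM for preB, with a log2 fold change of 1.00 from proB to preB (adjusted p = 1.66e-05). Cdkn2c rose by 0.78 in proB cells and Cdkn2d by 0.43 in preB cells. Cdkn1c was higher in proB than in pre–proB cells by 2.65 at levels below 2 CPM, and Cdkn2b was near 0. Among relatives of the targets, Ccng2 rose at both steps (0.61 and 0.81) beside -0.52 and 0.16 for Ccng1, and Trp53inp2 rose at both (2.13 and 0.98) as did Trp53inp1. Sesn1 differed by -0.24 and 0.41 and Sesn3 by -0.15 and 0.34, the -0.15 not being called. Phlda1 was higher in proB cells by 1.80, and Phlda2 had no count. The recombinase genes that make the breaks rose too, Rag1 by 1.64 and then 1.63 and Rag2 by 2.00 and then, not called, 0.31. Dntt, which adds nucleotides at heavy chain junctions, fell by 2.95 from proB to preB cells and differed by 0.57 between proB and pre–proB cells, which was not called.

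Between the genotypes, the RNA of none of the 8 genes differed past the threshold in pre–proB cells. Unadjusted p-values under 0.05 were obtained for 2 of them, Cdkn1a and Trp53inp1, and DESeq2 and limma-voom called 0 of the 8. Cdkn1a was at 5.62 and 3.10 CPM in Erg-deficient libraries against 8.15 and 6.93 CPM in controls, from 90 and 48 against 127 and 114 counts. The log2 fold change of Cdkn1a was -0.80 (95% interval -1.50 to -0.09, adjusted p = 0.337). Trp53inp1 was at 205 and 196 CPM against 295 and 221 CPM (log2 fold change -0.38, 95% interval -0.70 to -0.05, adjusted p = 0.324). Without Erg fl/fl replicate 2 it was -0.59 and called (adjusted p = 0.00770), and without replicate 1 it was -0.14 with an adjusted p of 1.00, so the value depended on which control library was kept. The control libraries differ in B lineage RNA (1476 and 762 CPM, against 394 and 392 CPM in Erg-deficient cells), whose part in this difference was not tested.

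For Sesn2 the values were 21.0 and 20.3 CPM against 16.8 and 19.8, a log2 fold change of 0.16 (95% interval -0.10 to 0.43). Phlda3, at 4.12 and 4.26 against 3.21 and 3.59 CPM, differed by 0.29 (95% interval -0.23 to 0.81). Ccng1, at 130.0 and 136 against 123 and 126 CPM, differed by 0.08 (95% interval -0.06 to 0.22). For Sesn2, Phlda3 and Ccng1 the interval included no change, and the differences were smaller than the test resolves. Mdm2, at 129.7 and 129 CPM, differed by 0.01 (95% interval -0.14 to 0.16), and Mdm4, at 172 and 148 CPM, by -0.01 (95% interval -0.22 to 0.20). The interval of Trp53 (-0.07, from -0.24 to 0.09) was as narrow, so that the intervals of Trp53, Mdm2, Mdm4 and Ccng1 all stayed within 0.24 of no change on the log2 scale.

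In the other lists edgeR called 0 of 28 further targets, 0 of 11 break sensing genes, 0 of 10 regulators, 0 of 4 kinase inhibitors, 0 of 5 relatives and 0 of 12 proliferation genes. Unadjusted p-values under 0.05 were obtained for 2 of the 28 targets, 1 of the 4 kinase inhibitors (Cdkn1a itself), 2 of the 12 proliferation genes and 0 in the other 3 lists, and DESeq2 and limma-voom also called 0 in each. Plk2 had the widest difference among the targets, -1.71 (adjusted p = 0.293), at levels between 0.26 and 1.28 CPM. Of the recombinase genes edgeR and DESeq2 each called 2 of 3 and limma-voom 0, Rag1 at 8.00 and 8.46 CPM against 283 and 120 CPM (log2 fold change -4.63, adjusted p = 0.0178) and Rag2 with -3.40 (adjusted p = 0.0241), while Dntt differed by -0.77 (adjusted p = 0.237). Of 8 B lineage markers 6 were lower with edgeR and with DESeq2 and 0 with limma-voom. Of 6 NK-like markers edgeR called 3, DESeq2 5 and limma-voom 0, all higher (summed level 245 and 365 against 200.5 and 203 CPM). For 8 myeloid-like markers the calls were 3, 5 and 0, all lower. Of 6 plasma cell-like markers 2 were lower with edgeR and with DESeq2 and 1 with limma-voom (summed level 60.5 and 99.9 against 474 and 445 CPM). Of the erythroid-like list 2 markers were tested and edgeR, DESeq2 and limma-voom called 0, with an unadjusted p under 0.05 in edgeR for both. T-like (1461 and 817 against 639 and 801 CPM) and plasmacytoid dendritic-like markers (10136 and 10659 against 8915 and 9542 CPM) had 0 of 6 members each called by edgeR, DESeq2 or limma-voom, with an unadjusted p under 0.05 in edgeR for 2 of 6 in each list. Most of the T-like sum was again Cd4, between 623 and 1214 CPM in Erg-deficient and between 474 and 614 CPM in control libraries. Cd3d, Cd3e and Cd3g had means of 6.01, 4.92 and 5.38 CPM against 5.66, 5.72 and 5.21 CPM in controls. The part of these lists in the differences of the 8 genes was not tested.

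Genes with the most similar course over the 8 libraries were sought for each member, by the root mean square difference of log2 CPM after centring each gene on its mean, among 10760 genes. For Cdkn1a they were Cdca7, Orc1 and Zfp428, at 0.217, 0.250 and 0.269. Cdca7 had 49.3 and 43.5 CPM at the pre–proB stage, 291 and 312 CPM at the proB stage, 129.5 CPM in each preB library, and 33.6 and 30.2 CPM in Erg-deficient cells. Trp53inp1 lay nearest to Tmem164, Cd1d1 and Foxo1 (0.073, 0.100 and 0.109), and Sesn2 to Rhobtb2 (0.079). Phlda3 was closest to Ass1, Ptpn22 and Uhrf1bp1 (0.113, 0.117 and 0.141). For Trp53 the nearest were Wdr74, Senp3 and U2af2, for Mdm2 Rlf, 2610044O15Rik8 and Trak2, for Mdm4 Rrnad1, Zfp113 and Kmt2e, and for Ccng1 Smim7, Dnajb11 and Trpc4ap, all at 0.059 or less. These distances are descriptions over 8 libraries of 4 groups, and small distances are common where a gene varies little.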

How the data were processed

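RNA-seq counts of 8 libraries in 4 groups were analysed. The authors deposited whole-number counts per Entrez Gene identifier without normalization. As the study's methods and the submitters' processing notes state, they trimmed reads with Trim Galore, aligned them to mm10 (GRCm38) with STAR and counted them with featureCounts, after base calling with CASAVA 1.8.2. The sources used here give neither the STAR version nor whether strand was used or how multi-mapping reads were handled, and reads of near-identical genes may be shared. Symbols came from RefSeq for 25275 identifiers and from GENCODE for 18. The 1886 without a symbol held 0.571% of counts and stayed in the tests.

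Groups came from the sample titles. Stages were compared in a fit of the 6 Erg fl/fl libraries and genotypes in a fit of the 4 pre–proB libraries, with edgeR 4.0.16 in R 4.3.3 (TMM, at least 0.5 CPM in at least 2 libraries, legacy glmQLFit and glmQLFTest, two-sided, Benjamini-Hochberg over all genes kept, threshold 0.05). FPKM used exon lengths of GENCODE. The procedure was tested on simulated counts. With these totals, 3 counts correspond to between 0.154 and 0.194 CPM. Counting precision therefore limits Phlda3, Sesn2 and Cdkn1a most.

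All 8 genes are named in every comparison. Of each further list, the counts and at most 6 called genes by p are named, with every gene of lists of up to 7, and for each member the 3 genes of nearest course among those with at least 5 CPM in 2 libraries, of which some for Sesn2 are not reported here. Rps27l, Atm, Prkdc, Cdkn2a, Trp63, Trp73, Ly6d and, between genotypes, Plk2 are outside that rule and were named after their values were seen. The 8 genes and the lists were chosen with earlier results of these data known. Alternatives in scaling and filter were edgeR's relative log expression (RLE) size factors or total counts, and no filter or at least 1 CPM. Alternative tests were DESeq2 1.42.0, limma-voom (limma 3.58.1) and edgeR's version 4 method. Further alternatives were all 8 libraries in 1 fit, a table without immunoglobulin genes, a replicate block, and the omission of each library in turn. Figures used matplotlib 3.10.9 in Python 3.11.15.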

Additional observations from a re-analysis of the deposited data

How the results depend on the processing

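The calls among the 8 genes kept their number within 1.5 times in all 16 alternatives of each stage comparison: 5 or 6 called in proB against pre–proB, 5 to 7 in preB against proB (7 with the replicate block, where Trp53 was called) and 8 in preB against pre–proB. Leaving out single libraries gave 5 or 6, 5 or 6, and 8. Between genotypes, 0 of 8 were called in 13 of 14 alternatives, and leaving out single libraries gave 0 to 1. The count over all genes moved from 151 to 279 without a filter, 400 with DESeq2, 41 with limma-voom, 88 with edgeR's version 4 method, 442 with all 8 libraries and 265 with the replicate block. Leaving out 1 library gave 10 (without Erg-deficient replicate 2) to 401 (without Erg fl/fl replicate 2), and 16 without Erg-deficient replicate 1. The cause was not tested. The genotype value of Mdm2 turned sign with total counts (-0.030), without Erg fl/fl replicate 2 (-0.044) and without Erg-deficient replicate 1 (-0.00060), with a range of -0.044 to 0.044 over left-out libraries. That of Mdm4 did so with all 8 libraries (0.0031), without Erg fl/fl replicate 1 (0.048) and without Erg-deficient replicate 2 (0.094), with a range of -0.12 to 0.094. None of these values was called. As a CPM ratio, without gene length, Mdm4 to Mdm2 was 1.25 in pre–proB, 1.29 in proB, 1.16 in preB and 1.24 in Erg-deficient cells, a change of unit. Left-out libraries gave FPKM ratios of 0.357 to 0.366, 0.370 to 0.377, 0.310 to 0.365 and 0.333 to 0.383.

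The differences between replicates 1 and 2 correlated at 0.204 for pre–proB and proB and at 0.0956 for proB and preB. For the other pairs of groups the correlation lay between -0.010 and 0.0091. Same-numbered libraries thus deviated together most for pre–proB and proB and less for proB and preB, and these correlations were not tested. The sources do not tie the numbers to mice, and the replicate block is therefore only an alternative setting, and in preB against proB cells it gave Trp53 an adjusted p of 0.0499.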
